A study of Homo sapiens with 2 samples.

Results

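Epithelial antimicrobial and defence proteins were followed in RNA-seq libraries from a study of HIPK2, a nuclear serine/threonine kinase. The set held 10 genes of the 20263 listed in the files: RNASE7, DEFB1, DEFB4A, SLPI, PI3, LCN2, LTF, CAMP, LYZ and BPIFB1. They were chosen by name for what their proteins do, with counts of the same libraries already known, so their values are a description and carry no test. One library, here called the library labelled HIPK2 shRNA, came from Cal-27 cells stably transduced with an shRNA against HIPK2 (GV-248-HIPK2-sh). The scramble shRNA library came from Cal-27 cells stably transduced with a control vector (sh-scramble). Both kinds of cells were grown in regular medium, DMEM with fetal bovine serum, and no other agent is named for either. Cal-27 is an established line from a human tongue squamous cell carcinoma, and whether the transduced cells were a clone or a pool was not given in the sources used here. With 1 library a group there was no replicate check. Every difference below compares these 2 libraries and not the conditions.

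Squamous epithelium of the mouth and skin secretes small proteins that kill microbes, withhold iron from them or restrain the proteases of inflammation. RNASE7 and the beta-defensins damage microbial membranes, LCN2 captures the iron carriers that bacteria release, and SLPI and elafin (the product of PI3) inhibit neutrophil elastase. Several of these genes are known as targets of interleukin-1 and interleukin-17 signalling through NF-kB and C/EBP factors, whereas LTF, CAMP and LYZ are best known from neutrophils, macrophages and glands.

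Stretches of promoter from RefSeq (GRCh38.p14) are shown for RNASE7 and LCN2, the members that were lower by more than 2-fold and had an entry. They are set out here so that bases before the start sites can be read beside the levels of the transcripts. Neither stretch holds the start site itself. Of the 10 members, 5 had an entry, with 7 windows in all, namely RNASE7, LCN2, CAMP, LTF and BPIFB1. Each stretch is the part of the 250 bases before a RefSeq start that lies outside every exon of the GENCODE 29 annotation. The RNASE7 stretch lies on the plus strand at chr14:21042112-21042225, 250 to 137 bases before the start, and 43.9% of its 114 bases are G or C. The LCN2 stretch lies on the plus strand at chr9:128149265-128149440, 188 to 13 bases before the start, and 54.5% of its 176 bases are G or C. This stretch lies inside the listed span of the LCN2 gene, which begins upstream of it, at 128149071. Capitals mark motif matches.
RNASE7: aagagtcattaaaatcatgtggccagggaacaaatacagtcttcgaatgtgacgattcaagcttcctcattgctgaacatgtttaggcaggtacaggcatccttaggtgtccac
LCN2: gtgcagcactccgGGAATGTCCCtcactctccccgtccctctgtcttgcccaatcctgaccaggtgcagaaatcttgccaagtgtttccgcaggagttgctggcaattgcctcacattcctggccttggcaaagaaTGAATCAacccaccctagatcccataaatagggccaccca

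The LCN2 stretch held a match to the kappaB motif bound by NF-kB, GGAATGTCCC as printed (the motif reads on the opposite strand), 175 bases before the start. It also held TGAATCA, 52 bases before the start. This matched the AP-1 motif as searched, TGANTCA, a loose pattern that leaves the central base open. The printed RNASE7 stretch held no match, and an AP-1 match stood 102 bases before its start, inside an annotated exon. Both strands were searched for these motifs, for the STAT motif TTCNNNGAA and for the TATA box TATAAA, and no 2 matches overlapped. Over all 35116 promoter windows of 250 bases, 9.96% held the kappaB motif, 6.57% the AP-1 motif, 6.57% the STAT motif and 10.7% the TATA box. Of the other windows, 1 of the 3 of LTF held a STAT match, 42 bases before its start, and those of CAMP and BPIFB1 held none. A match describes these letters and not a bound site.

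The library labelled HIPK2 shRNA held 26450251 counts and the scramble shRNA library 28064923, so 1 count was worth 0.0370 and 0.0365 CPM (the count scaled to library size, with TMM factors). Mitochondrial genes took 9.77% and 10.2% of the counts. HIPK2 itself (ENSG00000064393, chromosome 7, 139561570 to 139777778, minus strand) had 218 counts in the library labelled HIPK2 shRNA, against 110 in the scramble shRNA library. That was 8.06 CPM (95% counting interval 7.02 to 9.20), against 4.01 CPM (3.30 to 4.83), or 2.01 times as much (1.59 to 2.55). The TPM values that the authors deposited, which divide by transcript length, stood the other way, at 0.873 TPM in the library labelled HIPK2 shRNA and 1.63 TPM in the scramble shRNA library. A length factor implied by the deposited values was 16481 in the library labelled HIPK2 shRNA, against 4120 in the scramble shRNA library. This factor is a relative value, read only between the libraries, and not a length in bases. HIPK2 was thus divided by unlike lengths in these libraries. The counts of the targeted gene thus went against the label, and every direction below is that of the library and not of the kinase's level. Intervals cover counting error only. Without molecular identifiers a read is not an independent molecule, so the intervals may be too narrow even for that.

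Of the 10 genes, 3 were lower by more than 2-fold in the library labelled HIPK2 shRNA: DEFB4A, RNASE7 and LCN2. No member was higher by as much in CPM. SLPI and PI3, the antiprotease genes, stood higher, by less than 2-fold in CPM, though PI3 had a ratio of 2.20 in TPM. DEFB1 and LYZ had few counts, and LTF, CAMP and BPIFB1 had 0 counts in both libraries. Expressed here means 1 CPM or more in either library, and past 2-fold means a log2 ratio of CPM + 1 of at least 1 or at most -1. On this scale 2.87% of the 11813 expressed genes were lower and 3.26% higher. Nothing is read from these shares for the members, which were chosen from the same contrast. The median log2 ratio over all 10 members was 0, as 3 of them had no count at all and 2 had few. Over all expressed genes it was 0.000232, but that value leaves out genes under 1 CPM, so these medians cover unlike sets.

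Together the 10 genes took 5845 counts, or 0.0221% of the library labelled HIPK2 shRNA, against 25633 counts, or 0.0913% of the scramble shRNA library. Per transcript length, LCN2 was the most abundant of them in both libraries, at 256 TPM and 1244 TPM. In the library labelled HIPK2 shRNA it was followed by SLPI at 143 TPM, RNASE7 at 17.7 TPM, DEFB4A at 4.17 TPM and PI3 at 3.36 TPM. In the scramble shRNA library it was followed by RNASE7 at 138 TPM, SLPI at 105 TPM, DEFB4A at 57.0 TPM and PI3 at 1.52 TPM. RNASE7 and SLPI thus stood in opposite order in these libraries. There is no spread over samples to set against these orders, and DEFB4A and PI3 in the library labelled HIPK2 shRNA rested on 29 and 35 counts, with CPM intervals that overlapped.

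**Figure D1:**
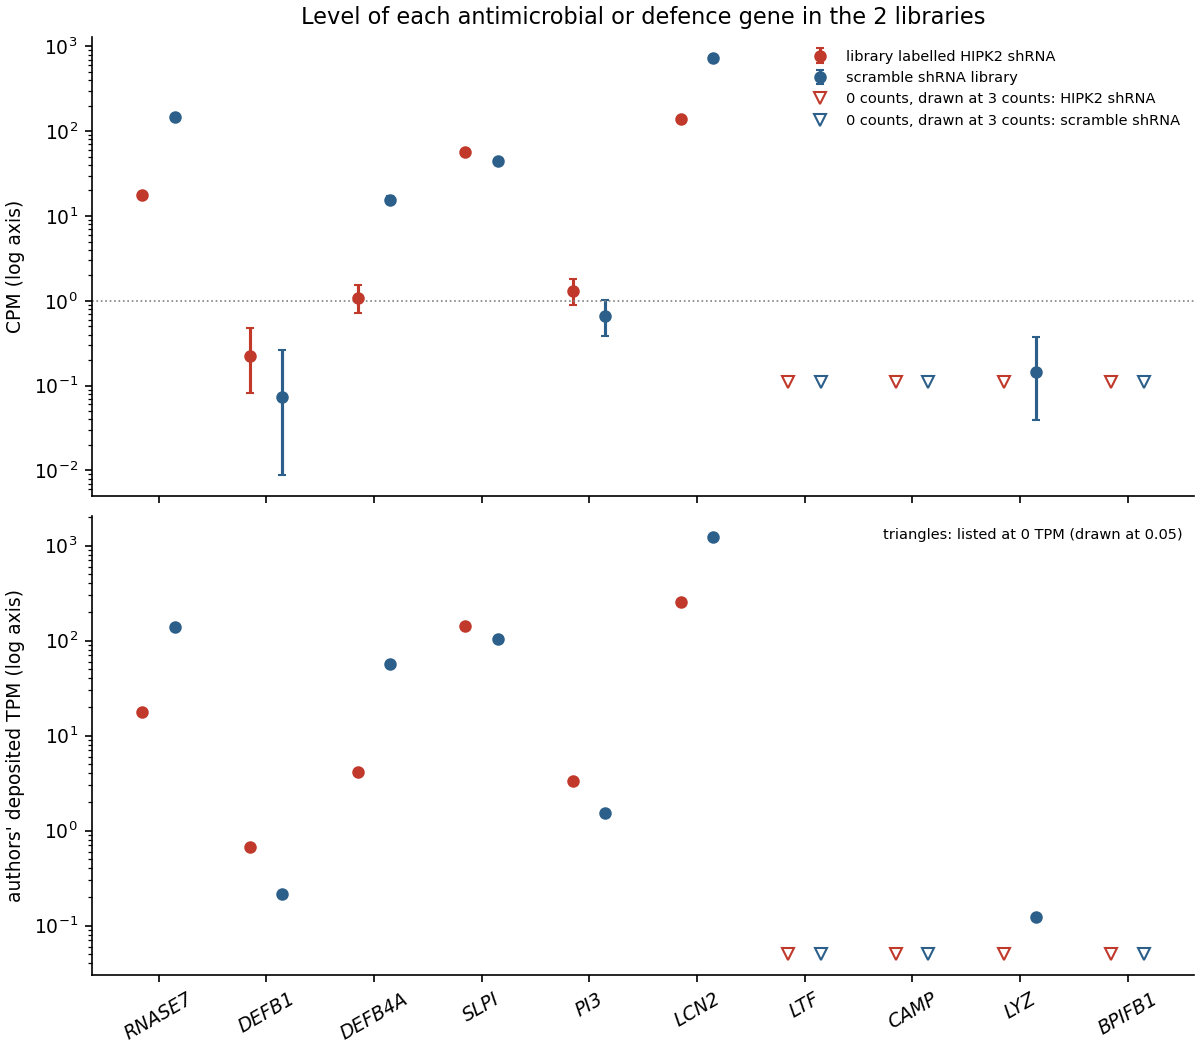
Level of the 10 genes in the library labelled HIPK2 shRNA (red, left of each pair) and the scramble shRNA library (blue, right), as CPM with 95% counting intervals (upper panel) and as the authors' deposited TPM (lower panel), both on log axes; the dotted line marks 1 CPM and open triangles mark 0 counts. RNASE7, DEFB4A and LCN2 have the red point far below the blue one, SLPI and PI3 have it above, and LTF, CAMP and BPIFB1 have no counts in either library.

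RNASE7 encodes ribonuclease 7, a secreted cationic ribonuclease and one of the main antimicrobial proteins of squamous epithelium. The gene (ENSG00000165799) lies on chromosome 14, 21042226 to 21044234, plus strand, GRCh38. It had 481 counts in the library labelled HIPK2 shRNA, against 4041 in the scramble shRNA library. Its level was 17.8 CPM (16.2 to 19.4), against 147 CPM (142.8 to 151.9). The intervals lay far apart, and the gene was 8.29-fold lower (7.54 to 9.13), with a log2 ratio of CPM + 1 of -2.98. This was the 11th lowest log2 ratio of the 11813 expressed genes. In deposited TPM it was 7.77-fold lower, so the unit hardly mattered. By TPM it ranked 4302 from the top of all listed genes in the library labelled HIPK2 shRNA and 1020 from the top in the scramble shRNA library.

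RNASE7 has a close relative, RNASE8, whose transcript was 88.8% identical to that of RNASE7 over 430 aligned positions. RNASE8 had 0 counts in both libraries. RNASE7 also lies inside the span of NDRG2 on the opposite strand, though the exons of the pair share 0 bases. The use of strand in the authors' counting was not given in the sources used here.

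The beta-defensins are small cationic peptides that permeabilise microbial membranes. DEFB4A encodes beta-defensin 2, the form that epithelia make in response to inflammatory signals. It (ENSG00000171711, chromosome 8, 7894629 to 7896711, plus strand) had 29 counts in the library labelled HIPK2 shRNA, against 424 in the scramble shRNA library. Its level was 1.07 CPM (0.718 to 1.54), against 15.5 CPM (14.0 to 17.0). It was 14.4-fold lower (9.90 to 21.8), the widest ratio among the members with counts in both libraries. With 1 CPM added, which understates the ratio of a gene at so low a level, the log2 ratio was -2.99, the 9th lowest of all expressed genes, and in TPM it was -3.49.

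A near-identical copy, DEFB4B, encodes the same peptide, and 331 of 332 aligned transcript positions matched (99.7%). How the authors' counting shared reads between these copies is not known, so the split is uncertain. DEFB4B had 6 counts in the library labelled HIPK2 shRNA, against 81 in the scramble shRNA library, and was 13.3-fold lower (5.86 to 37.4). Summed, the copies had 35 counts, against 505, and were 14.2-fold lower (10.1 to 20.7). DEFB4A took 82.9% of the summed counts in the library labelled HIPK2 shRNA (Clopper-Pearson interval 66.4 to 93.4), against 84.0% in the scramble shRNA library (80.5 to 87.1). As the sharing of reads is not known, these like shares do not show what each copy did. The sum gave the same picture as DEFB4A alone.

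DEFB1 encodes beta-defensin 1, the form that most epithelia make without stimulation. It (ENSG00000164825, chromosome 8, 6870575 to 6878022, minus strand) had 6 counts in the library labelled HIPK2 shRNA, against 2 in the scramble shRNA library. This is 0.222 CPM (0.0814 to 0.483), against 0.0729 CPM (0.00883 to 0.263). The ratio of 3.04 had an interval of 0.544 to 30.8, so no difference was detectable at this depth. Of the 43 defensin genes listed, 37 had 0 counts in both libraries and only DEFB4A and DEFB4B reached 1 CPM.

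SLPI and PI3 encode secretory leukocyte protease inhibitor and elafin, which share the whey acidic protein (WAP) fold and protect tissue from neutrophil elastase. SLPI (ENSG00000124107, chromosome 20, 45252239 to 45254564, minus strand) had 1528 counts in the library labelled HIPK2 shRNA, against 1216 in the scramble shRNA library. Its level was 56.5 CPM (53.7 to 59.4), against 44.3 CPM (41.9 to 46.9). The ratio was 1.27 (1.18 to 1.37), a small difference with a counting interval wholly above equal levels. The log2 ratio was 0.34 with CPM and 0.45 with TPM. No replicate shows how far 2 cultures of one kind would differ, so this size cannot be set against culture-to-culture spread.

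PI3 (ENSG00000124102, chromosome 20, 45174876 to 45176544, plus strand) had 35 counts in the library labelled HIPK2 shRNA, against 18 in the scramble shRNA library. Its level was 1.29 CPM (0.901 to 1.80), against 0.656 CPM (0.389 to 1.04). The intervals overlapped, and the ratio was 1.97 (1.09 to 3.70). In TPM the ratio was 2.20. PI3 counted as expressed only through the library labelled HIPK2 shRNA. SLPI and PI3 lie 75.7 kb apart on chromosome 20 in a cluster of WAP genes, and the SEMG1 and SEMG2 genes between them had 0 counts in both libraries.

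LCN2 encodes lipocalin-2, also called neutrophil gelatinase-associated lipocalin, which binds bacterial siderophores and so keeps iron from bacteria. It (ENSG00000148346, chromosome 9, 128149071 to 128153455, plus strand) had 3766 counts in the library labelled HIPK2 shRNA, against 19928 in the scramble shRNA library. Its level was 139 CPM (134.8 to 143.7), against 726 CPM (716 to 737). It was 5.22-fold lower (5.04 to 5.41), the most precise ratio of the set because the counts were highest. The log2 ratio was -2.38 with CPM and -2.28 with TPM, the 23rd lowest of all expressed genes. By TPM it ranked 553 from the top in the library labelled HIPK2 shRNA and 122 from the top in the scramble shRNA library.

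LTF encodes lactoferrin, the iron-binding transferrin of milk, tears and neutrophil granules. It (ENSG00000012223, chromosome 3, 46435645 to 46485234, minus strand) had 0 counts in both libraries, which allows up to 0.111 CPM in the library labelled HIPK2 shRNA and 0.109 CPM in the scramble shRNA library. CAMP (ENSG00000164047, chromosome 3, 48223347 to 48225491, plus strand) encodes the cathelicidin precursor of the peptide LL-37, and BPIFB1 (ENSG00000125999, chromosome 20, 33273480 to 33309878, plus strand) a BPI-fold protein of airway and salivary secretions. Both also had 0 counts in each library, with the same limits. LYZ (ENSG00000090382, chromosome 12, 69348341 to 69354234, plus strand), which encodes the cell wall-cleaving enzyme lysozyme, had 0 counts in the library labelled HIPK2 shRNA, against 4 in the scramble shRNA library. The interval of the ratio, library labelled HIPK2 shRNA over scramble shRNA library, reached up to 1.54, so no difference was detectable. Of the exon bases of LYZ, 599 are shared with an antisense RNA, which adds to the uncertainty of so low a count.

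**Figure D2:**
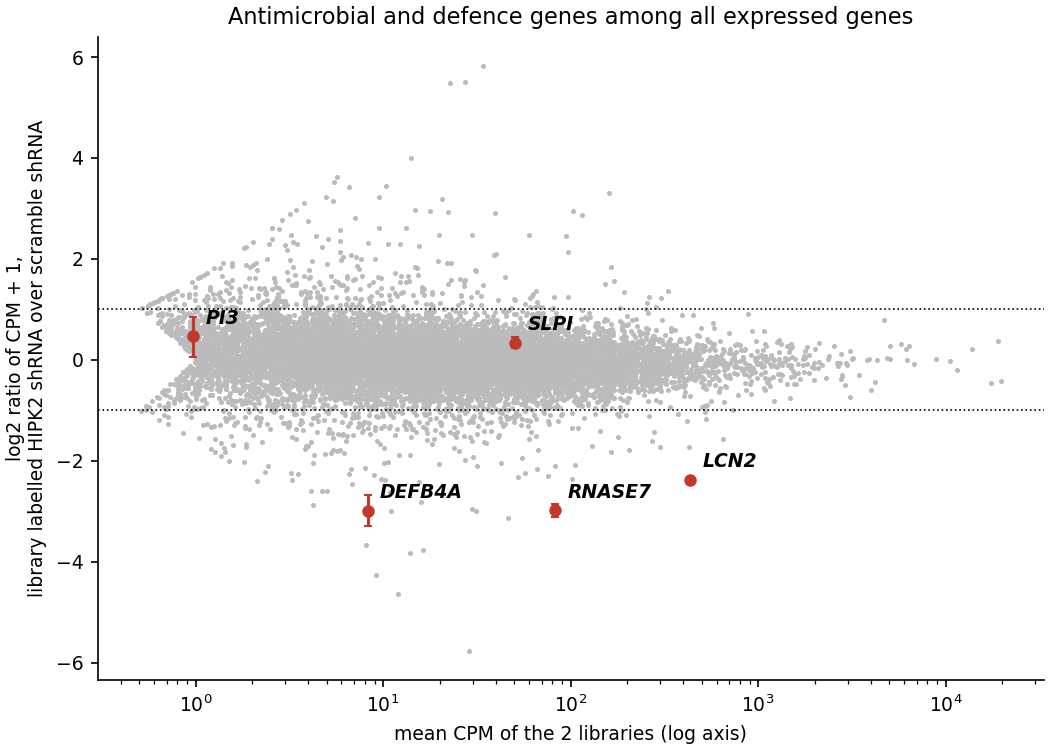
Log2 ratio of CPM + 1, library labelled HIPK2 shRNA over scramble shRNA library, against the mean CPM of both libraries on a log axis, for the 11813 expressed genes (grey) and the 5 expressed members (red, with 95% counting intervals); dotted lines mark 2-fold. DEFB4A at -2.99, RNASE7 at -2.98 and LCN2 at -2.38 lie at the lower edge of the cloud, and SLPI at 0.34 and PI3 at 0.47 lie within the dotted lines.

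Of 43 defensin genes, the 2 expressed ones, DEFB4A and DEFB4B, were both lower past 2-fold. As near-identical copies that may share reads, they are not 2 separate observations. DEFB4B counted as expressed only through the scramble shRNA library. Of the 13 ribonuclease A family genes, 4 were expressed, with 1 lower past 2-fold (RNASE7) and 2 higher. ANG, which encodes angiogenin, had 106 counts in the library labelled HIPK2 shRNA, against 40 in the scramble shRNA library, a ratio of 2.69 (1.85 to 3.97). RNASE4 had 58 counts, against 10, a ratio of 5.88 (2.98 to 12.9). RNASE4 counted as expressed only through the library labelled HIPK2 shRNA. The exons of RNASE4 and ANG share 675 bases, so these values are uncertain. RNASE10 had 136 counts, against 79, a ratio of 1.75 (1.31 to 2.33).

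Among 16 WAP genes listed, 3 were expressed and 11 had 0 counts in both libraries. All 3 stood above 0, with a median log2 ratio of 0.47, which is the value of PI3. PI3 passed 1 CPM only through the library labelled HIPK2 shRNA, where it was higher. The other WAP genes with counts, WFDC3 and WFDC5, stayed under 1 CPM and stood the other way. WFDC3 had 14 counts in that library, against 21 in the scramble shRNA library, and WFDC5 had 0, against 7. WFDC2, which encodes the secreted WAP protein HE4, was the one past 2-fold. It had 247 CPM in the library labelled HIPK2 shRNA, against 120 CPM in the scramble shRNA library, a ratio of 2.05 (1.96 to 2.14). Of 19 lipocalin genes, 2 were expressed: LCN2 and APOM, the apolipoprotein M gene, whose 108 counts against 106 gave a ratio of 1.03 (0.783 to 1.36).

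Of 13 transferrin and iron-handling genes, 6 were expressed and 0 were past 2-fold, with a median log2 ratio of -0.42. FTH1, the ferritin heavy chain gene, had 6411 CPM in the library labelled HIPK2 shRNA, against 5161 CPM in the scramble shRNA library, a ratio of 1.24 (1.23 to 1.25). Its exons share 1267 bases with BEST1 on the opposite strand. FTL, the ferritin light chain gene, stood the other way and was 1.31-fold lower, and TFRC, the transferrin receptor gene, was 1.43-fold lower. None of the 11 lysozyme family genes was expressed. Of 12 BPI-fold genes, PLTP, a phospholipid transfer protein, was the one expressed, at 26.6 CPM, against 35.3 CPM.

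A further 27 genes of antimicrobial and mucosal defence proteins, outside these families, held 12 expressed genes. Of these, 6 were lower past 2-fold and 0 higher, and 10 of the 12 had a log2 ratio below 0. Their median log2 ratio was -1.05 with CPM and -0.72 with TPM, beside 0.000232 and 0.0771 over all expressed genes. The list was drawn up with earlier results of these libraries known, so the count is a description.

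The 6 lower genes of that list were S100A7, S100A8, S100A9, SAA1, SAA2 and PIGR. S100A7, which encodes the antibacterial zinc-binding protein psoriasin, had 1.85 CPM in the library labelled HIPK2 shRNA, against 11.7 CPM in the scramble shRNA library, 6.31-fold lower. S100A8 and S100A9 encode the subunits of calprotectin, which withholds zinc and manganese from microbes. S100A8 had 1.48 CPM, against 5.40 CPM, and was 3.65-fold lower. S100A9 had 78.0 CPM, against 208 CPM, and was 2.67-fold lower.

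SAA1 and SAA2 encode near-identical serum amyloid A proteins, so reads may be shared between them. SAA1 had 91.1 CPM in the library labelled HIPK2 shRNA, against 317 CPM in the scramble shRNA library, 3.48-fold lower. SAA2 had 21.4 CPM, against 61.8 CPM, 2.89-fold lower. PIGR encodes the receptor that carries IgA into secretions. It had 2.96 CPM, against 8.02 CPM, and was 2.71-fold lower. In TPM it was 2.52-fold lower, with a log2 ratio of TPM + 1 of -0.83. The other 6 expressed genes of the list were under 2-fold on the log2(CPM + 1) scale. C3, the central complement gene, had 876 CPM, against 718 CPM, a ratio of 1.22, and CFB, complement factor B, had a ratio of 1.19. ADM, which encodes the antimicrobial peptide hormone adrenomedullin, had a ratio of 0.722.

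**Figure D3:**
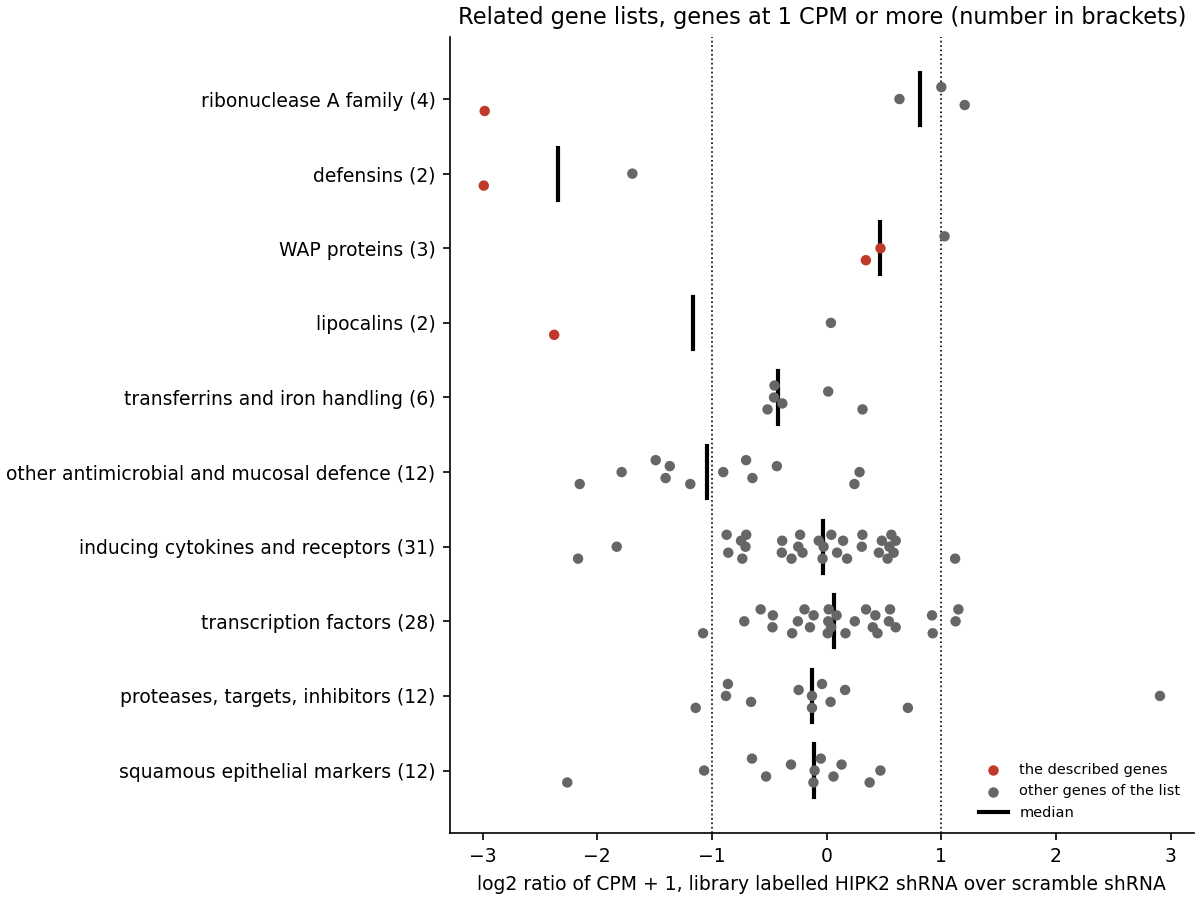
Log2 ratio of CPM + 1, library labelled HIPK2 shRNA over scramble shRNA library, for the expressed genes of each related list (points, red for the described genes; number of genes in brackets), with the list's median as a black bar and 2-fold as dotted lines. The median was -1.05 for other antimicrobial and mucosal defence genes, while those of inducing cytokines and receptors, transcription factors, proteases and squamous markers lay between -0.13 and 0.06.

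Most genes of the signals that induce these proteins differed by less than 2-fold. Of 44 cytokine, receptor and adaptor genes listed, 31 were expressed, 2 were lower past 2-fold and 1 was higher, with a median log2 ratio of -0.035. The 2 lower genes were the interleukin-1 ligands. IL1A had 23.6 CPM in the library labelled HIPK2 shRNA, against 110 CPM in the scramble shRNA library, 4.64-fold lower (4.26 to 5.06). IL1B had 71.4 CPM, against 256 CPM, 3.59-fold lower (3.42 to 3.78). IL1R1, the gene of their signalling receptor, was higher, at 6.80 CPM against 2.59 CPM, a ratio of 2.63. In TPM its ratio was 2.27, with a log2 ratio of TPM + 1 of 0.76. IRAK1, a kinase of this receptor, had 433 CPM, against 289 CPM. TNFRSF1A, a TNF receptor, had a ratio of 1.24, and TRAF3IP2, the adaptor of interleukin-17 receptors, one of 0.862.

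Of 29 transcription factor and regulator genes listed, 28 were expressed, 1 was lower past 2-fold and 2 were higher, with a median log2 ratio of 0.063. FOSL1, an AP-1 subunit, had 240 CPM in the library labelled HIPK2 shRNA, against 508 CPM in the scramble shRNA library, 2.12-fold lower, with a TPM log2 ratio of -0.96. ELF3, an epithelial ETS factor, had 91.4 CPM, against 40.6 CPM, a ratio of 2.25, and 664 of its exon bases are shared with an antisense RNA. AHR, the aryl hydrocarbon receptor, had 28.0 CPM, against 12.3 CPM, a ratio of 2.28, and shares 2373 exon bases with a listed read-through gene. The best expressed of the others lay near a ratio of 1: RELA, an NF-kB subunit, had a ratio of 0.840, STAT3 of 0.904 and CEBPB of 1.06.

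Of 29 genes of processing proteases, protease targets and inhibitors, 12 were expressed, 1 was lower past 2-fold and 1 higher. TGM2 encodes tissue transglutaminase, a protein cross-linking enzyme, and elafin is a transglutaminase substrate. It had 70.2 CPM in the library labelled HIPK2 shRNA, against 8.49 CPM in the scramble shRNA library, a ratio of 8.26 (7.21 to 9.51). It shares 394 exon bases with RPRD1B on the opposite strand. CTSS, the cathepsin S gene, had 3.88 CPM, against 9.77 CPM, 2.52-fold lower. In TPM it was 2.67-fold lower, with a log2 ratio of TPM + 1 of -0.98. ELANE, PRTN3 and CTSG, neutrophil proteases that SLPI or elafin can inhibit, had 0 counts in both libraries. CTSD, ST14 and RNH1, which encodes a cytosolic inhibitor of ribonucleases, had ratios of 0.915, 0.972 and 1.12.

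Cell type markers fitted a squamous epithelial line in both libraries. All 12 squamous markers were expressed, with a median log2 ratio of -0.11 in CPM and 0.011 in TPM. In CPM, 8 of them stood below 0 and 4 above. Their summed level was 2172 TPM in the library labelled HIPK2 shRNA, against 2116 TPM in the scramble shRNA library. In CPM the sum stood the other way, at 3248 CPM, against 3686 CPM. KRT5, a basal keratin, made up most of the TPM sum, at 1765 TPM, against 1624 TPM. In CPM it too stood the other way, at 2554 CPM, against 2766 CPM. TP63, the p63 gene, had 64.7 CPM, against 62.1 CPM. KRT14, the partner of KRT5, was an exception at 1.63 CPM, against 11.6 CPM, 7.13-fold lower, and CDH1, E-cadherin, was 2.11-fold lower in CPM, with a TPM log2 ratio of -0.80. In bulk RNA, fewer cells that make a transcript and less of it in each cell cannot be told apart.

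Markers of other cell types that make LTF, CAMP, LYZ and BPIFB1 were mostly at 0. Of 13 neutrophil and myeloid markers, 9 had 0 counts in both libraries, among them PTPRC, MPO, ELANE and CEACAM8, and 3 were expressed. CD68 had 20.6 CPM in the library labelled HIPK2 shRNA, against 23.1 CPM in the scramble shRNA library. CD14 had 3.25 CPM, against 4.96 CPM, and ITGAM 2.03 CPM, against 1.57 CPM. The summed level was 21.0 TPM, against 23.5 TPM, most of it from CD68 (16.7 TPM, against 17.8 TPM). CD68 shares 1789 exon bases with another transcript on the same strand. Of 9 salivary acinar markers, 7 were at 0 in both libraries and the sum was 2.07 TPM, against 0.369 TPM. PRH1 had 18 counts, against 0, but shares exons with its neighbours. Of 5 airway secretory markers, 4 were at 0 in both libraries and 0 reached 1 CPM.

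The listed genes next to each member were compared by position, with 3 on each side. All 6 neighbours of LCN2 were expressed and 0 were past 2-fold, as their log2 ratios ran between -0.29 (SLC25A25) and 0.35 (DNM1), beside -2.38 for LCN2. The others were PTGES2 at -0.06, C9orf16 at -0.26, NAIF1 at 0.09 and CIZ1 at 0.27. Around RNASE7, 3 of the 6 neighbours were expressed. NDRG2, the gene whose span holds RNASE7, had 149 CPM in the library labelled HIPK2 shRNA, against 404 CPM in the scramble shRNA library, 2.71-fold lower (2.61 to 2.81). ARHGEF40 stood at -0.34 and ZNF219 at -0.06. RNASE8 and TPPP2 had 0 counts in both libraries, and RNASE13 had 0 counts, against 2.

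None of the 6 neighbours of DEFB4A was expressed. DEFB103A, the gene of beta-defensin 3, had 0 counts in the library labelled HIPK2 shRNA, against 7 in the scramble shRNA library. DEFB103B, listed apart, had the same counts, and whether reads were shared between these genes is not known. Beside SLPI and PI3, WFDC5 had 0 counts, against 7, and MATN4 had 8, against 6. SDC4, the syndecan-4 gene, was the other expressed neighbour, at 549 CPM, against 784 CPM, a log2 ratio of -0.51.

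**Figure D4:**
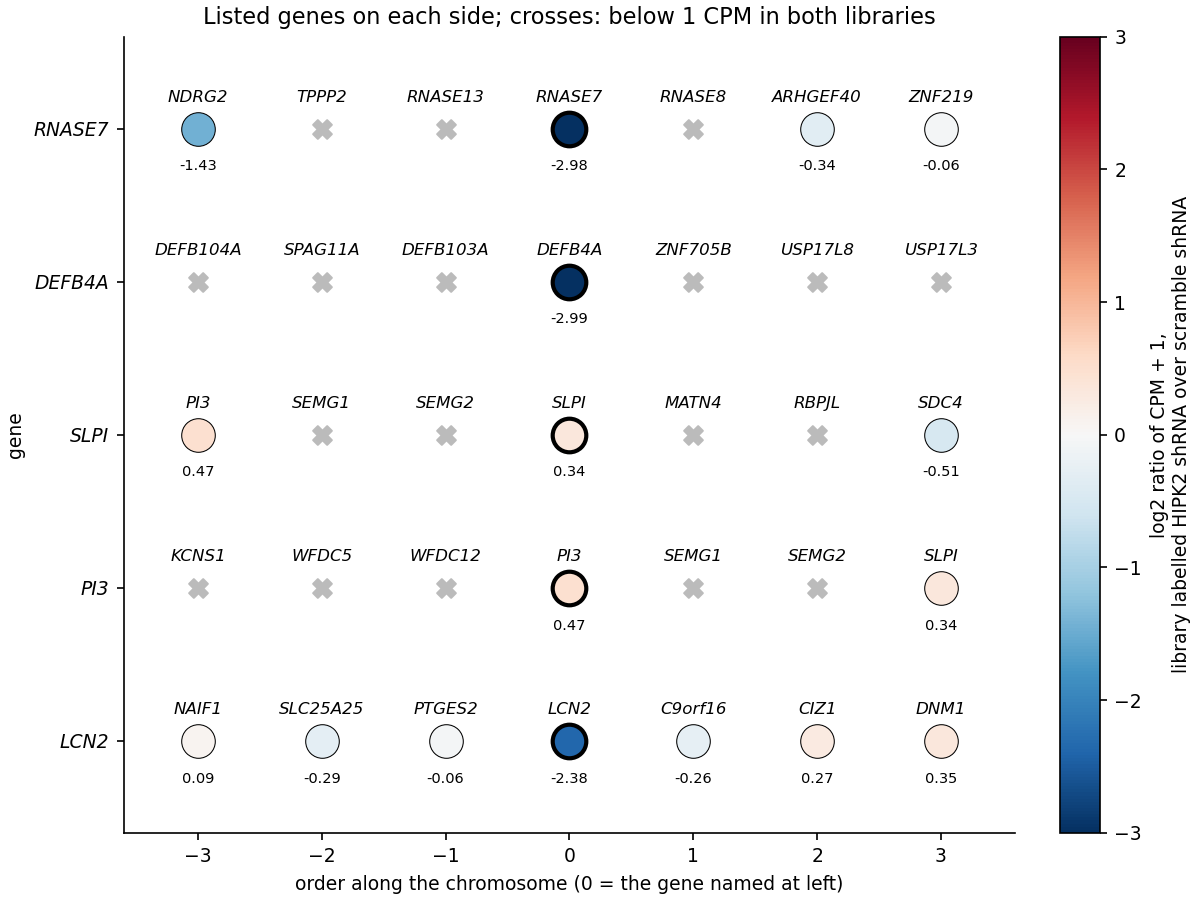
The 3 listed genes on each side of each expressed member, in chromosome order (horizontal axis, with the member at 0), coloured by log2 ratio of CPM + 1, library labelled HIPK2 shRNA over scramble shRNA library, with the value under each circle; crosses are genes under 1 CPM in both libraries. DEFB4A has 0 expressed neighbours and NDRG2 at -1.43 is among the 3 of RNASE7, while the 6 neighbours of LCN2 lie between -0.29 and 0.35.

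Genes with the most similar pair of levels were found by Euclidean distance in log2(CPM + 1) over the 2 libraries. Over so few libraries, this finds genes of like level and like ratio only. For RNASE7 these were C15orf48 (distance 0.503), IL1A (0.576) and TGOLN2 (0.643). C15orf48 had 24.6 CPM in the library labelled HIPK2 shRNA, against 126 CPM in the scramble shRNA library. For DEFB4A they included KRT14 (0.516) and TUSC1 (0.521). TUSC1 had 1.66 CPM, against 20.3 CPM. For LCN2 they were IGFBP3 (0.517), SLC39A1 (0.651) and F3 (0.837), the tissue factor gene. IGFBP3 had 197 CPM, against 656 CPM.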

How the data were processed

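RNA from Cal-27 cells was sequenced in 2 libraries, 1 per group. For each of 20263 genes the deposited files hold, per the file headers, a raw count beside TPM and FPKM. FPKM deposited by the authors was a constant multiple of TPM within a library and was used only for the implied length factor of HIPK2. TPM was used as deposited by the authors. Per the submitters' processing notes, FastQC and TopHat2 2.1.1 were used with GRCh38 (hg38); the counting tool, its annotation and its use of strand were not given in the sources used here. The authors' deposited counts were converted to CPM with TMM factors (1.02 for the library labelled HIPK2 shRNA, 0.977 for the scramble shRNA library) from edgeR 4.0.16 in R 4.3.3. Depth was 26450251 and 28064923 counts. Log2 ratios add 1 CPM, or 1 TPM where TPM is used, which understates the ratio of low genes. The 95% intervals are exact Poisson for levels and exact Clopper-Pearson, conditional on the summed count, for ratios (scipy 1.17.1). For a count of 0 a limit of 3 counts is also given, which lies below the upper end of the exact interval. No test was run, since 1 library a group leaves no residual degrees of freedom, and the calculations were tested on simulated data.

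The members and all gene lists were chosen with earlier results of these data known. Named genes are all members, HIPK2, the genes of each list past 2-fold (up to 6 by absolute log2 ratio) with up to 3 others of highest CPM, the 3 listed neighbours on each side of expressed members, and the 3 nearest genes by level for each member past 2-fold. Not every gene that this rule names is reported here. All members of the squamous, myeloid, salivary and airway marker lists were also examined. The spans of all 10 members were identical to GENCODE 29. The alternatives were 11 settings of pseudocount, scaling (DESeq2 1.42.0 size factors among them), unit, filter and fold.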

Additional observations from a re-analysis of the deposited data

How the results depend on the processing

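Under all 11 alternative settings the members held 3 lower and 0 higher genes past the fold used, by log2 ratios that include the pseudocount. No member's log2 ratio changed sign. It ranged between -3.04 and -2.74 for RNASE7, -2.39 and -2.28 for LCN2, -3.73 and -1.75 for DEFB4A (widest with the pseudocount), 0.32 and 0.45 for SLPI and 0.15 and 0.88 for PI3. The counts over all expressed genes moved more: 515 lower and 676 higher with a pseudocount of 0.1 CPM, 161 and 124 with 5 CPM, 217 and 159 at a minimum of 10 CPM, 1176 and 1254 at 1.5-fold, and 48 and 62 at 4-fold. Of 24 list medians recomputed with TPM or upper quartile scaling, 3 changed sign, 2 for inducing cytokines and receptors (0.089 and 0.019) and 1 for squamous markers (0.011), all near 0. No paired analysis was possible because there was 1 library a group, and for the same reason no replicate could be left out. The median over the members, 0 under each setting run, takes all 10, so a minimum of 10 CPM was not applied to it. Depth limits DEFB1 and LYZ, with at most 6 counts in a library, and the genes at 0.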
